A study of Homo sapiens with 10 samples.

Results

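The genes described here build and run the mitotic apparatus. They are 50 genes, of the 32738 in the count tables, taken by their symbols and by the function they are known for: 7 cyclins, CDK1 and partners of CDK1, 7 mitotic kinases, 7 kinesins, 8 kinetochore and centromere proteins, 11 proteins of spindle assembly and microtubule binding, 2 cytokinesis proteins, 5 condensin subunits and 3 proteins of the chromosome surface and mitotic entry. The choice has no threshold on a measured value. They were followed in single-cell RNA sequencing (scRNA-Seq) of HCT-116, a human colorectal carcinoma line with the genotype label WT, in 4 libraries: 2 untreated, and 2 of cells exposed to 200 nM doxorubicin (DOX) for 24 h, washed and left for 6 d without the drug. DOX is an anthracycline that poisons topoisomerase II and breaks DNA. Both conditions used the same line, and no other agent or edit is given for either. The sources do not say whether the replicates of a condition were separate cultures, and p-values here speak of the spread from library to library, which may be technical. The bulk samples of the series are not analysed here.

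Entry into mitosis follows the activation of CDK1 by cyclin B, for which CDC25 phosphatases remove inhibitory phosphates. Condensin then compacts the chromosomes, kinesins and microtubule binding proteins build the spindle, kinetochores attach chromosomes to it, the checkpoint kinases delay anaphase until attachment is complete, and anillin and ECT2 lead the cell into cytokinesis. The mRNAs of these proteins are made mostly in G2 and M phase. In arrested cells p53 induces CDKN1A, the CDK inhibitor p21, and the DREAM complex then represses many of these genes through promoter elements named CHR, the cell cycle genes homology region, often together with CCAAT boxes.

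That textbook element was looked up in the promoters of the members, a feature that played no part in their choice. RefSeq promoters of 300 bases (250 before to 50 after the start, build GRCh38.p14) were listed for 45 of the 50 members, all but AURKA, BIRC5, CDCA2, TPX2 and TTK. The CHR letters TTTGAA (either strand) or TTCGAA, which reads the same on both strands, lay between 100 bases before and 50 after the start in 32 of these 45 genes (71.1%), against 26 of 56 other mitotic genes (46.4%) and 2483 of all 27305 listed genes of every type (9.09%). At least 2 CCAAT boxes (either strand) were held by 22 of 45 members (48.9%), 24 of 56 other mitotic genes (42.9%) and 12.9% of all genes. Both features together were found in 17 of 45 members (37.8%), 12 of 56 other mitotic genes (21.4%) and 1.08% of all genes. A match of this kind is a description of letters, not of a bound site. The windows of 8 members that recur below are shown so that the element and its place before the start can be compared across functions. Each is 30 bases, 5′ to 3′ on the strand of the gene, with the CHR in capitals, and was placed on GRCh37, the build of the count tables (hg19), by an exact match of the whole promoter.
MKI67 (chr10:129924699-129924728, minus strand): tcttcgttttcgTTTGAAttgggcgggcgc
PLK1 (chr16:23690169-23690198, plus strand): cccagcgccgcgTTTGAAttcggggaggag
CDK1 (chr10:62538211-62538240, plus strand): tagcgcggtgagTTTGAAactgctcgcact
CCNB2 (chr15:59397304-59397333, plus strand): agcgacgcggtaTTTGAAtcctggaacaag
BUB1B (chr15:40453235-40453264, plus strand): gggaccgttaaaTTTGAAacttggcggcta
CDCA3 (chr12:6960436-6960465, minus strand): cgtggcgggaagTTTGAAactggtaacttc
KIF23 (chr15:69706621-69706650, plus strand): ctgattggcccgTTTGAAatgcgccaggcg
NCAPG (chr4:17812555-17812584, plus strand): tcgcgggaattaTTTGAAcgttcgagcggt

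In these 8 the element is TTTGAA on the strand of the gene, and it begins between 55 (KIF23) and 3 bases (CDCA3) before the start. Over all 33 such windows of the 32 genes the nearest element read TTTGAA in 23 and TTCGAA in 2. In 8 it read TTCAAA, the same letters on the other strand. It began before the start in 23 windows and after it in 10, from 75 bases before (SMC4) to base 44 after (CDC25C). CDC25C has 2 such windows, from different promoters, that overlap and hold the same TTTGAA. From the other promoter this element begins 30 bases before the start, so these tallies count it for each promoter. By GENCODE v44 the windows of MKI67 and NCAPG end before the annotated gene, and the other 6 shown overlap an annotated exon of the gene. The log2 fold changes given below ran from -1.22 to -0.51 with a median of -0.83 in the 32 genes with a CHR near the start, and from -1.02 to -0.59 with a median of -0.89 in the 13 genes without one.

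Each droplet has a barcode, and unique molecular identifiers (UMIs) count its captured mRNA molecules. The libraries differ in depth and in what their barcodes are. The untreated libraries held 4701 and 2528 barcodes and the DOX libraries 8000 each, a number set by the authors, with library totals of 159897846 to 317489299 UMIs. Comparisons used deep barcodes, those with at least 20000 UMIs and under 8% mitochondrial UMIs: 3572 and 2137 untreated, but 1307 and 1080 DOX barcodes, or 13.5 to 16.3% of the DOX barcodes with 60.0 to 64.9% of their UMIs. Within this set depth was alike, with medians of 72791.5 and 81168 UMIs untreated and 72676 and 84829.5 UMIs with DOX. Libraries shared 1 to 3 deep barcode sequences with another library. Of the epithelial markers, KRT8 was at 1143 to 1980 CPM (UMIs per 1000000 UMIs of the deep barcodes). A list of 9 markers of blood, stromal, endothelial and red cells summed to 3.19 and 3.40 CPM untreated and 6.25 and 6.80 CPM with DOX. PTPRC was at most at 0.366 CPM and CD3E at 0 in DOX replicate 2. Not all were that low: 8 of the 9 were under 1 CPM in both untreated libraries and DOX replicate 1, and 7 in DOX replicate 2. Most of those tested were higher with DOX, as given below. The share of ribosomal protein UMIs was 17.0 and 16.8% untreated and 19.9 and 19.8% with DOX, and its part in the results was not tested.

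With DOX the whole set was lower. The 50 members together made up 5036 and 5255 CPM in the untreated and 3187 and 3271 CPM in the DOX libraries. In the test on UMIs summed per library, 50 of 50 members fell, where 26.3% of the 21563 genes tested were lower and 28.3% higher. Each member was below both untreated libraries in both DOX libraries. How many of all genes separate in this way was not counted, here or where groups without overlap are named below. The log2 fold changes ran from -1.22 for CDCA3 to -0.51 for CDC25C with a median of -0.85, beside a median of 0.04 over all genes tested. These sums cannot tell fewer cells that express a gene from less RNA in each such cell. The mitotic kinases had a median of -1.01, and the medians of the other 7 groups lay between -0.89 and -0.81. The call held for all 50 genes with DESeq2, with other limits on depth, mitochondrial share and high UMI totals, and after thinning. It also held without any 1 library, where 1 condition has a single library and the spread comes from the other condition alone. Under scaling by total UMIs alone the median of the members was -0.68 and that of all genes 0.21, and the split over all genes went from 5665 lower and 6109 higher to 3246 lower and 8464 higher.

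**Figure D1:**
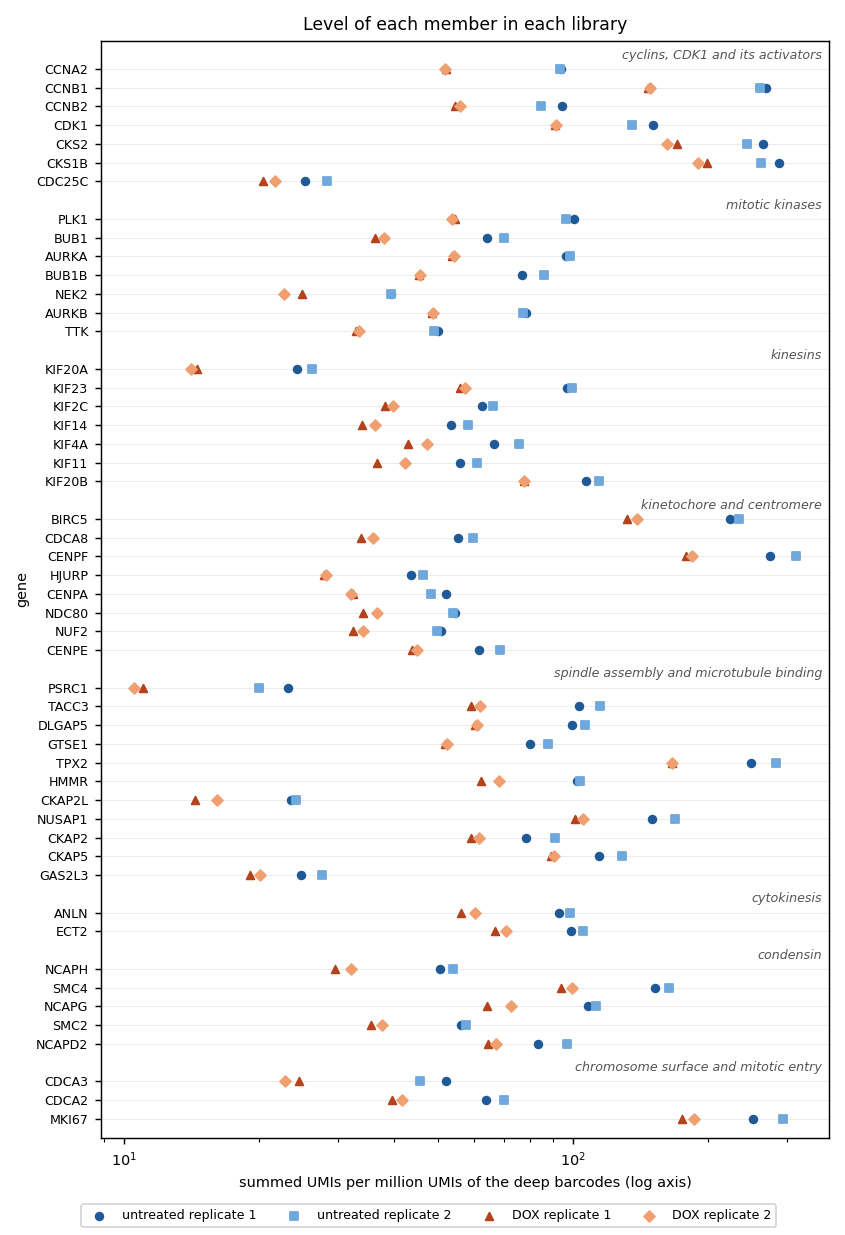
Level of each of the 50 members in each of the 4 libraries, as UMIs per 1000000 UMIs of the deep barcodes on a log axis, grouped by function and ordered by the change with DOX. Circles and squares are the untreated libraries, triangles and diamonds the DOX libraries, and in every row both DOX points lie to the left of both untreated points.

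Among the cyclins, CDK1 and its activators, 7 of 7 genes fell (median log2 fold change -0.82). CCNB1 (chr5:68462962-68474072), cyclin B1, was at 269.6 and 261 CPM in the untreated and 147 and 148 CPM in the DOX libraries, a log2 change of -1.02 ± 0.074 (SE, adjusted p = 1.41e-05). The pair of values within a condition differed by far less than the conditions did. CDK1 (chr10:62538089-62554610), the kinase that cyclin B activates, stood at 151 and 135 CPM in the untreated and 91.1 and 91.5 CPM in the DOX libraries, a change of -0.82 ± 0.086 (SE, adjusted p = 8.53e-05). CCNA2 (chr4:122737599-122745038), cyclin A2, which acts in S phase as well as at mitotic entry, had the largest change of the group, from 94.0 and 93.6 CPM untreated to 52.0 and 51.8 CPM with DOX (-1.02, adjusted p = 6.08e-06). CCNB2, cyclin B2, was at 94.4 and 84.8 CPM in the untreated and 54.6 and 56.0 CPM in the DOX libraries (-0.87, adjusted p = 5.51e-05). CDC25C (chr5:137620958-137674044), the phosphatase that activates CDK1, changed least of all 50 members, at 25.3 and 28.3 CPM in the untreated and 20.4 and 21.7 CPM in the DOX libraries, a log2 change of -0.51 ± 0.062 (SE, adjusted p = 1.64e-04). Both DOX values were below both untreated ones, though by a small margin. CKS1B and CKS2, small subunits that bind CDKs, complete the group with changes of -0.67 and -0.78. Another identifier with the symbol CKS1B, a processed pseudogene with 1 to 9 UMIs per library, was left out, and reads that both share cannot be assigned.

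All 7 mitotic kinases fell, by log2 changes from -1.03 to -0.75. PLK1 (chr16:23688977-23701688), polo-like kinase 1, which acts from mitotic entry to cytokinesis, was at 100.2 and 96.7 CPM in the untreated and 54.5 and 53.8 CPM in the DOX libraries, a log2 change of -1.03 ± 0.069 (SE, adjusted p = 8.97e-06). AURKA (chr20:54944445-54967393), the Aurora kinase of the spindle poles, was at 96.6 and 98.3 CPM in the untreated and 53.7 and 54.2 CPM in the DOX libraries, a change of -1.02 ± 0.061 (SE, adjusted p = 5.04e-06). For both kinases the DOX libraries lay within 1 CPM of each other. AURKB (chr17:8108051-8113918), the Aurora kinase of the chromosomal passenger complex, was at 78.7 and 77.4 CPM in the untreated and 48.4 and 48.7 CPM in the DOX libraries, a change of -0.85 ± 0.064 (SE, adjusted p = 1.67e-05). BUB1 and BUB1B, kinase and pseudokinase of the spindle checkpoint, changed by -1.03 ± 0.058 (SE, adjusted p = 4.03e-06) and -1.01 ± 0.059 (SE, adjusted p = 4.90e-06). BUB1 went from 64.4 and 70.1 to 36.1 and 37.9 CPM. TTK, the checkpoint kinase also called MPS1, had the smallest change of the group, -0.75 ± 0.064 (SE, adjusted p = 2.91e-05), and stood at 50.1 and 49.0 CPM in the untreated and 32.8 and 33.3 CPM in the DOX libraries. NEK2, a kinase of centrosome separation, was at 39.3 and 39.3 CPM in the untreated and 24.8 and 22.7 CPM in the DOX libraries (-0.89, adjusted p = 2.01e-05).

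All 7 kinesins fell, with a median of -0.84. KIF20A (chr5:137514408-137523412), a motor of the central spindle, had the largest change, from 24.3 and 26.3 CPM untreated to 14.5 and 14.1 CPM with DOX, or -0.99 ± 0.061 (SE, adjusted p = 5.90e-06). KIF23 (chr15:69706585-69740766), the motor of the centralspindlin complex, was at 97.0 and 99.4 CPM in the untreated and 56.0 and 57.4 CPM in the DOX libraries, a log2 change of -0.96 ± 0.060 (SE, adjusted p = 6.53e-06). KIF2C, which depolymerises microtubules at centromeres, was at 62.6 and 66.4 CPM in the untreated and 38.1 and 39.7 CPM in the DOX libraries (-0.90, adjusted p = 7.17e-06). The groups did not overlap in any of these 3 genes. KIF20B, a motor of cytokinesis, changed least, -0.67 ± 0.059 (SE, adjusted p = 3.28e-05), from 107 and 114 CPM untreated to 77.7 and 77.8 CPM with DOX. KIF4A, a chromosome-bound kinesin with a near copy, KIF4B, was also lower (-0.83), and only 15 to 18 UMIs per library were counted for the copy, which the counting could not fully separate.

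All 8 genes of kinetochore and centromere fell (-0.93 to -0.72). BIRC5 (chr17:76210267-76221717), survivin, which holds the chromosomal passenger complex on centromeres, had the largest change of the group, from 224 and 235 CPM untreated to 132 and 139 CPM with DOX, or -0.93 ± 0.066 (SE, adjusted p = 1.24e-05). CDCA8, borealin of the same complex, was at 55.3 and 60.0 CPM in the untreated and 33.7 and 35.7 CPM in the DOX libraries, a log2 change of -0.90 ± 0.059 (SE, adjusted p = 8.00e-06). HJURP, the chaperone that deposits the centromeric histone CENPA, was at 43.6 and 46.3 CPM in the untreated and 27.9 and 28.1 CPM in the DOX libraries (-0.85, adjusted p = 8.38e-06), and its client CENPA changed by -0.81. The log2 fold changes of chaperone and client lay within the sum of their standard errors. The kinesin CENPE, which carries chromosomes to the metaphase plate, had the smallest change, -0.72 ± 0.058 (SE, adjusted p = 2.20e-05), from 61.8 and 68.8 CPM untreated to 43.7 and 44.9 CPM with DOX. NDC80 and NUF2, which form the microtubule binding arm of the kinetochore together, changed by -0.79 and -0.77, and CENPF by -0.87.

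Of spindle assembly and microtubule binding, 11 of 11 genes fell and the spread was the widest, from -1.18 to -0.59. PSRC1 (chr1:109822178-109825808), a microtubule binding protein of the spindle, dropped from 23.2 and 19.98 CPM untreated to 11.0 and 10.5 CPM with DOX, a log2 change of -1.18 ± 0.10 (SE, adjusted p = 3.17e-05). TACC3, which with CKAP5 (ch-TOG) stabilises spindle fibres, was at 103 and 115 CPM in the untreated and 59.3 and 62.1 CPM in the DOX libraries, a change of -1.01 ± 0.062 (SE, adjusted p = 5.81e-06), while CKAP5 itself changed by -0.60 ± 0.062 (SE, adjusted p = 7.77e-05). The 2 partners differed by more than their standard errors, and the difference was not tested. DLGAP5, also called HURP, was at 99.4 and 106 CPM in the untreated and 60.6 and 61.1 CPM in the DOX libraries (-0.92, adjusted p = 6.66e-06). GTSE1, a regulator of microtubule stability that also binds p53, was at 80.3 and 87.8 CPM in the untreated and 51.9 and 52.5 CPM in the DOX libraries (-0.85, adjusted p = 9.31e-06). GAS2L3, which links microtubules and actin, had the smallest change, -0.59 ± 0.060 (SE, adjusted p = 7.63e-05), from 24.8 and 27.6 CPM untreated to 19.1 and 20.03 CPM with DOX. TPX2, the activator of AURKA on spindle microtubules, changed by -0.85, HMMR by -0.83 and NUSAP1 by -0.79.

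Both cytokinesis genes fell. ANLN (chr7:36429430-36493400), anillin, the scaffold of the contractile ring, was at 92.9 and 98.6 CPM in the untreated and 56.2 and 60.6 CPM in the DOX libraries, a log2 change of -0.88 ± 0.062 (SE, adjusted p = 1.16e-05). ECT2 (chr3:172468472-172539264), the exchange factor that switches on RhoA at the equator, was at 99.1 and 105 CPM in the untreated and 66.9 and 70.9 CPM in the DOX libraries, a change of -0.73 ± 0.060 (SE, adjusted p = 2.48e-05). The groups did not overlap in either gene. All 5 condensin subunits fell as well (median -0.86). NCAPH, the kleisin of condensin I, had the largest change, -0.93 ± 0.061 (SE, adjusted p = 8.22e-06), from 50.4 and 53.9 CPM untreated to 29.4 and 32.0 CPM with DOX. Its ATPases SMC4 and SMC2, which condensin II shares, changed by -0.88 ± 0.063 (SE, adjusted p = 1.33e-05) and -0.81 ± 0.060 (SE, adjusted p = 1.59e-05). NCAPD2 changed least, -0.62 ± 0.064 (SE, adjusted p = 7.94e-05), from 83.7 and 96.9 CPM untreated to 64.7 and 67.2 CPM with DOX, and NCAPG (chr4:17812602-17846488) was at 108 and 112 CPM in the untreated and 64.1 and 72.5 CPM in the DOX libraries (-0.86, adjusted p = 2.52e-05).

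The last group holds MKI67 (chr10:129894923-129924687), whose protein Ki-67 coats mitotic chromosomes and is the usual marker of proliferation. It was at 252 and 293 CPM in the untreated and 175 and 186 CPM in the DOX libraries, a log2 change of -0.76 ± 0.074 (SE, adjusted p = 5.87e-05), the smallest of the 3 genes in the group. CDCA3 (chr12:6953957-6960456), a trigger of mitotic entry that promotes destruction of WEE1, had the largest change of all members, from 52.1 and 45.6 CPM untreated to 24.6 and 22.8 CPM with DOX, or -1.22 ± 0.096 (SE, adjusted p = 2.11e-05). CDCA2, which brings a phosphatase to chromatin at anaphase, was at 64.1 and 70.1 CPM in the untreated and 39.5 and 41.5 CPM in the DOX libraries (-0.89, adjusted p = 8.09e-06). All 3 were lower in both DOX libraries than in either untreated library.

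Genes of the same machinery that are no members moved with them. Of 66 such genes on 4 lists, 64 fell and 0 rose at the same threshold in edgeR (median -0.74), and the 2 that did not pass were HAUS4, at -0.27 ± 0.10 (SE, adjusted p = 0.0542), and CLASP1, at -0.06 ± 0.063 (SE, adjusted p = 0.433). At an unadjusted p under 0.05 the count was 65. By list, 12 of 12 anchor genes, explained below, 25 of 25 further kinetochore and checkpoint genes, 19 of 21 genes of spindle, motors and cytokinesis and 8 of 8 of condensin II and cohesin were lower. CDC20, the activator of the anaphase-promoting complex, went from 302 and 280.0 CPM untreated to 136 and 128 CPM with DOX, or -1.31 ± 0.086 (SE, adjusted p = 8.38e-06). That was more than the change of any member, and the difference was not tested. CEP55, which completes abscission, changed by -0.92 and CCNF, cyclin F, by -0.78. Of the kinetochore list, SGOL2 (shugoshin, which protects cohesion) changed by -0.90, SKA3 (spindle and kinetochore associated) by -0.88 and CASC5 (the scaffold also called KNL1) by -0.81. Of the spindle list, SPAG5 (astrin) changed by -1.08, KIF22 (a chromosome-bound kinesin) by -0.90 and HAUS8 (augmin) by -0.81. The cohesin ATPases SMC3 and SMC1A, which act beyond mitosis too, changed by -0.80 and -0.74, and NCAPG2 of condensin II by -0.75.

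Genes that p53 induces in arrested cells went the other way in the same libraries. All 10 on the list rose (median 1.35), among them CDKN1A, from 29.1 and 29.3 CPM untreated to 281 and 239.6 CPM with DOX, or 2.99 ± 0.094 (SE, adjusted p = 1.56e-07), and MDM2, the ubiquitin ligase of p53, from 57.0 and 59.6 CPM untreated to 157 and 149 CPM with DOX, or 1.23 ± 0.064 (SE, adjusted p = 2.67e-06). Of the 9 markers of other cell types 5 had enough UMIs to be tested and 4 of these were higher, at levels that summed to at most 6.80 CPM in each library. Of the 5 epithelial markers 4 were higher and EPCAM was lower. What part these shifts have in the result for the members was not tested.

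The sums hide how the members are spread over barcodes. A mitotic score was made for each barcode from 18 of the members, such as CCNB1, PLK1 and CENPF, after every barcode was thinned at random to 20000 UMIs. Its median was 34 and 35 UMIs in the untreated and 16 and 17 UMIs in the DOX libraries. Untreated barcodes formed a single broad hump, of which 1.57% (1.19 to 2.03%, an exact binomial 95% interval like those below) and 1.68% (1.18 to 2.32%) had under 5 UMIs. In the DOX libraries 29.3% (26.8 to 31.9%) and 24.9% (22.4 to 27.6%) were under 5 UMIs, the tallest bar of both DOX histograms. The rest ran over the same range as untreated barcodes, with more of them at its low end. The next bar, from 5 UMIs, held 8.72 and 11.0% of DOX against 2.02 and 1.64% of untreated barcodes. A median of 36 members had at least 1 UMI per untreated barcode in both libraries, and of 27 and 28 members per DOX barcode, with lower quartiles of 31 and 31 against 9 and 12. These intervals cover counting error only. Free RNA can add UMIs to any barcode and was not measured here.

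**Figure D2:**
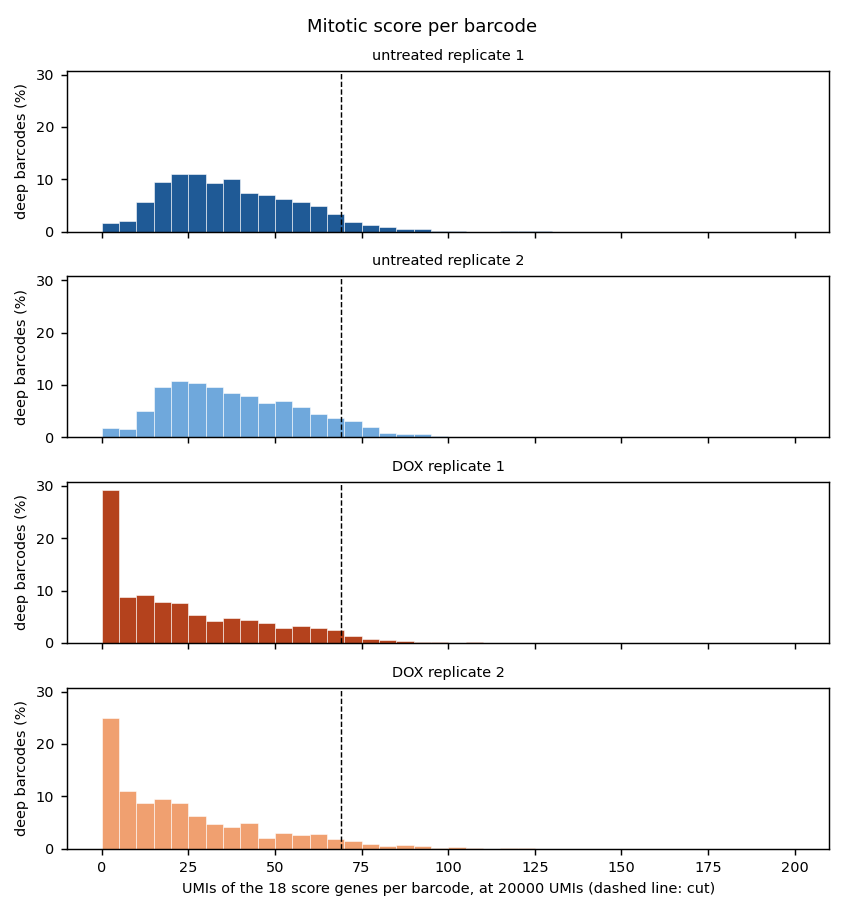
Mitotic score per deep barcode in the 4 libraries: UMIs of 18 members at 20000 UMIs (horizontal, in steps of 5) against the share of barcodes (vertical, percent). The dashed line is the cut for a mitotic profile at 69 UMIs, and the DOX libraries differ most at the left edge, where 29.3 and 24.9% of barcodes lie under 5 UMIs.

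At the upper end the shares were lower in both DOX libraries at the main cut. Barcodes with at least 69 UMIs, 2 times the untreated median, were called to have a mitotic profile. They were 6.13% (5.37 to 6.97%) and 8.10% (6.97 to 9.33%) of untreated barcodes, and 3.83% (2.85 to 5.01%) and 5.09% (3.86 to 6.58%) of DOX barcodes. The means differed by -2.65 percentage points (exact permutation test over libraries, two-sided p = 0.333, the smallest that 2 against 2 libraries allow). The profile is a range of a continuous score and not a cell type: 9.44 to 18.2% of barcodes per library lay within 20% of the cut. With a cut at 1.5 times the median the shares were 23.0 and 25.3% untreated and 14.2 and 13.7% with DOX. With all 50 members in the score the shares were 1.79 and 2.90% untreated and 1.53 and 2.69% with DOX, so the conditions overlapped (means 2.35 and 2.11%). A cut at 3 times the median left 3 and 3 untreated and 2 and 5 DOX barcodes. Their shares of 0.0840% (0.0173 to 0.245%) and 0.140% (0.0290 to 0.410%) untreated and 0.153% (0.0185 to 0.552%) and 0.463% (0.150 to 1.08%) with DOX have overlapping intervals and give no order of the conditions.

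To look at levels within classes of barcodes, barcodes were sorted by 12 anchor genes that are no members (TOP2A, CDC20, UBE2C, PRC1, ASPM, CEP55, PTTG1, CDKN3, KPNA2, CCNF, FAM83D and ARL6IP1), thinned in the same way. The profile class had at least 76 anchor UMIs, 2 times the untreated median, and the low class under 9.5 UMIs, 0.25 times it, a limit set after the values were seen. The low class held 1.40% (1.04 to 1.84%) and 1.64% (1.14 to 2.27%) of untreated but 29.7% (27.2 to 32.2%) and 29.0% (26.3 to 31.8%) of DOX barcodes. The members stood at 700.4 and 608 CPM there in the untreated and at 469 and 573 CPM in the DOX libraries, and CDKN1A at 175 and 291 against 577 and 502 CPM. The middle class held 93.5 and 94.8% against 67.6 and 68.1% of barcodes, with the members at 4924 and 5190.1 CPM untreated and at 4283 and 4318 CPM with DOX. In the profile class, with 183, 77, 36 and 31 barcodes, they stood at 8053 and 8777 against 8501 and 9369 CPM. Low barcodes with DOX had median depths of 81847 and 99153 UMIs, above those of the middle class in the same libraries, 69921 and 81548 UMIs.

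**Figure D3:**
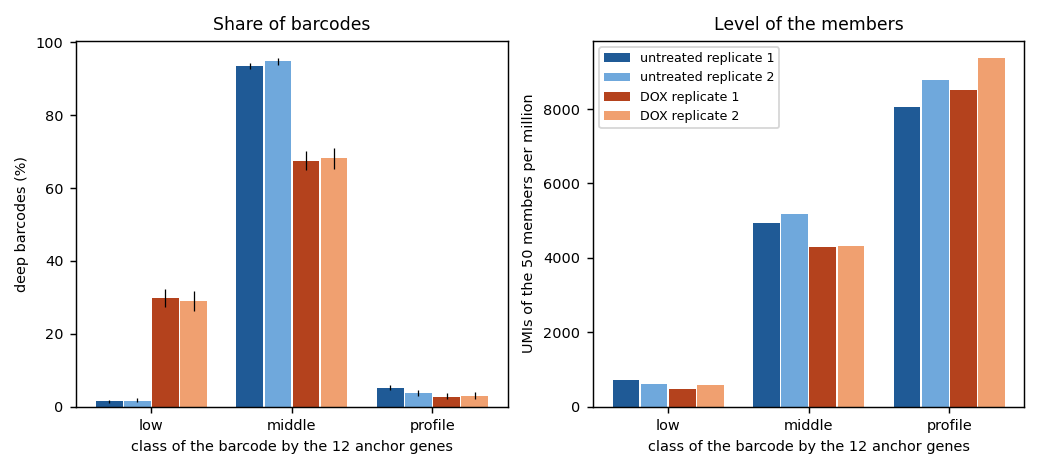
Classes of deep barcodes by the 12 anchor genes in the 4 libraries. Left, share of barcodes in percent with 95% exact binomial intervals; right, summed level of the 50 members in UMIs per 1000000 UMIs of the class. The low class holds 29.7 and 29.0% of DOX barcodes. In the right panel the conditions differ less within a class than the classes do, and the classes were cut on genes that the members follow.

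By gene, the ratio of the mean DOX to the mean untreated level in the middle class had a median of 0.851 and was under 1 in 48 of 50 members, of which 44 were lower in both DOX libraries than in both untreated libraries. It ran from 0.663 for PSRC1 to 1.08 for CDC25C. In the low class the median ratio was 0.832 and the spread wider, from 0.419 for BUB1B to 2.72 for CKAP2L. There 36 of 50 ratios were under 1, and 22 members were lower and 5 higher in both DOX libraries than in both untreated libraries. The low class held only 50 and 35 untreated barcodes, and the ratio of CKAP2L rests on 0.853 and 0 CPM untreated. In neither class were such counts made over all genes, so they describe the members only. In the middle class CCNB1 was at 261 and 256 CPM untreated and at 197 and 195 CPM with DOX. It was at 19.1 and 17.8 against 12.3 and 13.0 CPM in the low class. MKI67 was at 247 and 289.9 against 245 and 256 CPM in the middle class, and at 19.6 and 14.1 against 8.25 and 13.5 CPM in the low class. Both genes were far lower in the low than in the middle class of either condition. When low barcodes were left out of all 4 libraries, 41 of 50 members were still lower, where 16.5% of 20466 genes tested were lower and 16.3% higher. The median log2 fold change of the members was then -0.30, and the 9 that no longer passed were CDK1, CDC25C, KIF11, KIF20B, CENPE, CKAP2, GAS2L3, NCAPD2 and MKI67. MKI67 was then at -0.18 (adjusted p = 0.109), and CDC25C at 0.03 (adjusted p = 0.776). The low barcodes were picked by anchor genes that the members follow, and they are a far larger share of DOX than of untreated barcodes. Leaving them out therefore makes the members' change smaller by itself, and -0.30 is not a DOX change free of that choice.

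Levels and tests within the anchor classes need a caution. Barcodes were put inside or outside the profile at the same anchor level in both conditions, and the members follow the anchors, so levels inside are held alike in part by the choice of barcodes. Inside the profile 0 members were lower and 1 was higher, where 1.42% of 12452 genes tested were lower and 4.02% higher, and 4 members had an unadjusted p under 0.05. The median log2 fold change was 0.07. The exception was NCAPG, at 0.48 ± 0.14 (SE, adjusted p = 0.0384), with 132 and 143 CPM untreated and 158 and 225 CPM with DOX; with mitochondrial shares of up to 20% allowed it no longer passed. PLK1 inside was at 0.06 ± 0.13 (SE, adjusted p = 0.861), AURKA at -0.14 ± 0.13 (SE, adjusted p = 0.6) and MKI67 at 0.15 ± 0.13 (SE, adjusted p = 0.568). Standard errors of the members inside were 0.13 to 0.16. On simulated counts made like these 31.3% of genes changed 1.5-fold were called. Those genes were drawn at random from all genes tested, at any level, so this is not a rate for the members. In the barcodes outside, 50 of 50 were lower (median -0.89), where 26.6% of genes were lower and 28.4% higher. The low class lies wholly outside, so the split itself moves the change inside above that outside for genes that follow the anchors, and the difference is given as a description only. It was above 0 and called in 50 of 50 members (median 0.80), where 1.43% of 19597 genes were above and 0.592% below, and also in 12 of 12 anchors (median 0.88). Among the members it ran from 0.47 for CKS1B to 1.24 for NCAPG.

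**Figure D4:**
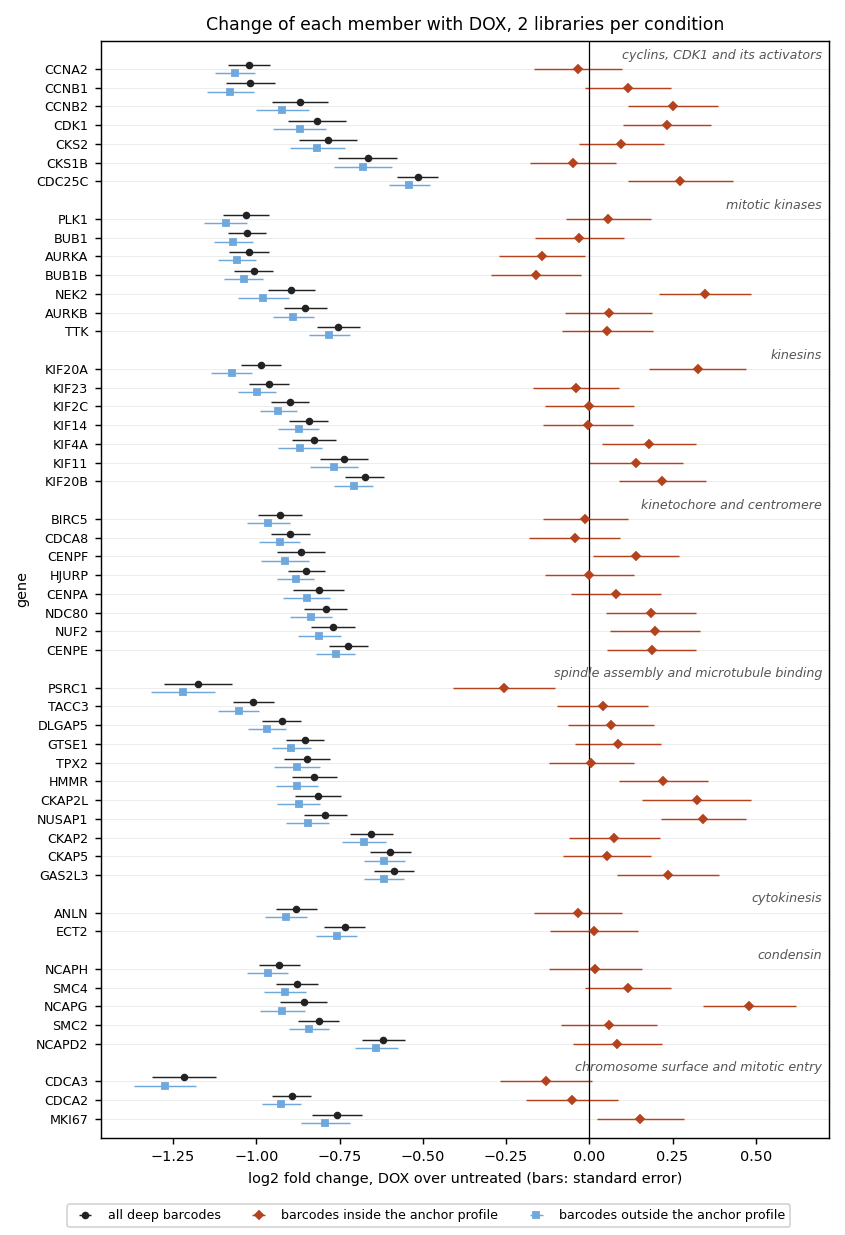
Log2 fold change of each member, DOX over untreated, with its standard error, in all deep barcodes (circles), inside (diamonds) and outside (squares) the anchor profile, with 2 libraries per condition. Circles and squares lie between -1.27 and -0.51, and diamonds between -0.26 and 0.48 around the line at 0.

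The members also moved together more from barcode to barcode in the DOX libraries. Over the 1225 pairs of members the mean Pearson correlation across thinned barcodes was 0.18 and 0.19 in the untreated and 0.39 and 0.38 in the DOX libraries, over 3572, 2137, 1307 and 1080 barcodes. The barcodes of a library share its preparation and were thinned to 1 depth, so these values describe libraries and carry no test. All deep barcodes entered, with the low class at 29.7 and 29.0% of DOX but 1.40 and 1.64% of untreated barcodes. The part of that class in the correlations of this paragraph was not tested. The closest pair with DOX was CENPF and MKI67 in both libraries (0.74 and 0.73), while CKS2 and AURKA (0.49) and CENPF and TPX2 (0.50) were closest in the untreated libraries. CENPF had the highest mean correlation with the other members, 0.53 and 0.53 with DOX. SMC2 had the lowest, 0.24 and 0.21 with DOX and 0.04 and 0.03 untreated. With CDKN1A the correlation was below 0 for 50 of 50 members in both DOX libraries (medians -0.32 and -0.31) and for 49 and 50 members untreated (medians -0.09 and -0.10). How many of all genes correlate below 0 with CDKN1A was not counted, so these counts describe the members only.

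Barcodes outside the limits held the members at other levels. Barcodes with at least 20000 UMIs but at least 8% mitochondrial UMIs numbered 395 and 173 untreated and 579 and 651 with DOX. The members made up 4771 and 4872 UMIs per 1000000 UMIs that are not mitochondrial in these untreated barcodes, beside 5303 and 5516 in the deep ones, and 1972 and 2108 with DOX, beside 3351 and 3446. Including barcodes of up to 20% took the median log2 fold change from -0.85 to -1.18. Most DOX barcodes were shallow: 5164 and 4729 had under 5000 UMIs and under 8% mitochondrial UMIs, with 13888 and 12618 UMIs of members in all. Whether these are cells or fragments of cells cannot be told from the counts. In them the level of a member, as a ratio to its level in deep barcodes of the same library, ranged from 0.188 to 1.04 in DOX replicate 1 and from 0.204 to 1.16 in replicate 2, with medians of 0.439 and 0.471. MKI67 was at 0.267 and 0.281 of its deep level and KIF4A at 0.188 and 0.225. By contrast CKS1B was at 1.04 and 1.12, CDK1 at 0.939 and 1.16 and CKS2 at 0.924 and 1.03. These genes were named after their values were seen.

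The ratio followed the length of the transcript. The 7 members at over 0.75 of the deep level in both DOX libraries (CCNB1, AURKB, CDCA3, CCNB2, CKS2, CDK1 and CKS1B) have canonical transcripts of 616 to 2029 bases by GENCODE v44, and the 12 members under 0.35 in both have 2093 to 12716 bases. Across the 50 members the Spearman correlation of ratio and length was -0.77 and -0.79 in the DOX libraries, against 0.08 and 0.37 in the shallow barcodes of the untreated libraries, which numbered only 239 and 129 and held 2845 and 1291 UMIs of members. This is a description across genes of 1 library, which are not independent. Ribosomal protein UMIs were 28.2 and 29.2% of the UMIs in DOX barcodes with 1000 to 2000 UMIs, against 19.9 and 19.8% in all deep DOX barcodes. In untreated barcodes with 1000 to 2000 UMIs they were 15.7 and 14.2%, against 17.0 and 16.8% in the deep ones. Whether these shares go with transcript length was not tested. The part of transcript length in the DOX change of the deep barcodes was not tested.

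**Figure D5:**
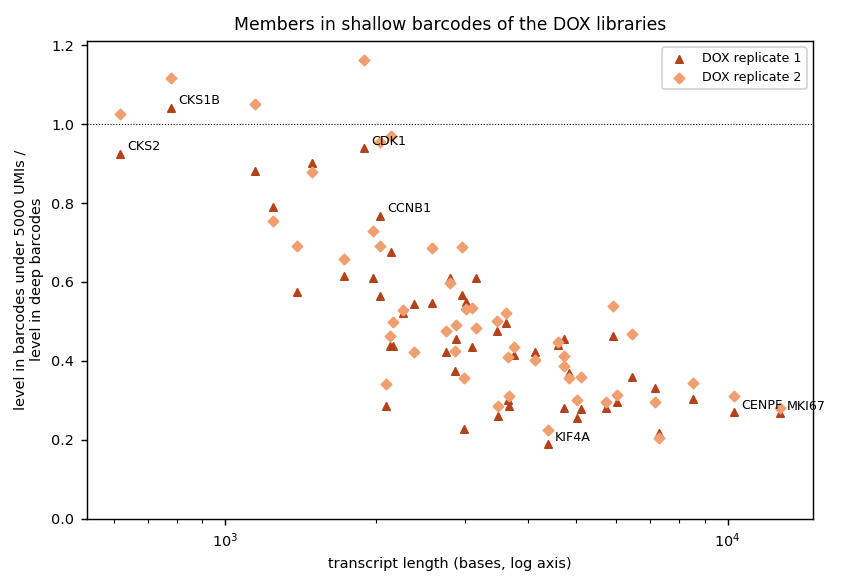
Level of each member in shallow barcodes (under 5000 UMIs) over its level in deep barcodes, against the length of its canonical transcript in bases (log axis), for the 2 DOX libraries (triangles and diamonds). The dotted line marks an equal level; the 7 members with ratios over 0.75 in both libraries have transcripts of 616 to 2029 bases, and MKI67, with 12716 bases, lies at 0.267 and 0.281.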

How the data were processed

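The deposited tables hold raw UMI counts per gene and barcode (10x 3′ kit), which the authors made with Cell Ranger 7.2.0 (per the file headers; the submitters' notes list 7.0.0, CASAVA 1.8.2, SAMtools 1.2 and bedtools 2.25) on hg19, keeping 8000 barcodes in each DOX library, so barcodes that the caller would drop are present there. Counts of barcodes with at least 20000 UMIs and under 8% mitochondrial UMIs were summed per library and tested over all genes with edgeR 4.0.16 (TMM, filterByExpr, robust quasi-likelihood test, Benjamini-Hochberg, threshold 0.05) in R 4.3.3, with 2 libraries per condition. Totals of the summed barcodes were 102333220 to 291488794 UMIs per library. DESeq2 1.42.0 was an alternative. The interaction fit had library as a block. Replicates differed by more than counting (chi-square per degree of freedom 46.7 untreated and 7.81 DOX).

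The members and lists were chosen with earlier results of these data known. Named genes were MKI67, BIRC5, PLK1, AURKA, AURKB, CCNB1 and CDK1; per function group the 3 with the smallest adjusted p and those with the largest and smallest change; members that did not pass, that passed with the opposite sign inside the profile, or that had the 3 largest interactions; and the 3 with the smallest adjusted p of each other list. Others are named as extremes or lost calls and were picked after their values were seen. No doublet caller was run; the 5% of barcodes with most UMIs were left out as an alternative. On simulated counts for the deep barcodes (21563 genes) 64.2, 65.7 and 89.4% of genes changed 1.5-, 2- and 4-fold were called, and 6.41% of calls were false. For the barcodes inside the profile these were 31.3, 74.6, 93.9 and 3.62%, outside 74.6, 71.6, 92.4 and 10.7%, and for the interaction 4.48, 50.8, 68.2 and 9.89%. Coordinates are GENCODE v44 lifted to GRCh37, with all 50 members matched by gene ID. Other software was matplotlib 3.10.9, pandas 2.3.3, scipy 1.17.1 and numpy 2.4.6 in Python 3.11.15. The symbols KNL1, SGO1, SGO2 and PECAM1 were not matched in the tables; CASC5, SGOL1 and SGOL2 stood for the first 3.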

Additional observations from a re-analysis of the deposited data

Results flagged for a closer look

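The DOX change inside the anchor profile minus that outside it was called in 50 members by edgeR's interaction test, which is what drew attention to them, with a median difference of 0.80 on the log2 scale. The split itself moves this difference above 0, because the profile was set at 1 anchor level in both conditions while the low barcodes, 29.7 and 29.0% of DOX but 1.40 and 1.64% of untreated barcodes, all lie outside. The 12 anchor genes had a like difference (median 0.88, from 0.71 for CCNF to 1.23 for CDKN3), so the test does not show that DOX acts differently on the members in the 2 sets of barcodes. The differences were 1.24 for NCAPG, 1.23 for KIF20A and 1.17 for NEK2. Of these NCAPG alone passed inside the profile, and it did not at a mitochondrial limit of 20%. Over all 19597 genes tested the difference was called above 0 in 1.43% and below in 0.592%. After thinning to 20000 UMIs the count of members called was 30, where 0.687% of 15570 genes were above 0 and 0.0514% below. Groups of 2 libraries are too small for a check of single outlying samples.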

How the results depend on the processing

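All 50 members stayed lower in deep barcodes with DESeq2, other scaling, filters and limits, thinning, a replicate block and the leaving out of 1 library, where 15.1 to 30.9% of all genes tested were lower. With 1 library left out its condition has a single library, which is assumed to vary like the other condition. The median log2 fold change of the members, -0.85, was -0.92 with DESeq2, -0.68 with scaling by total UMIs alone, -0.90 without a filter on low counts, -0.83 from 40000 UMIs, -1.18 with a mitochondrial limit of 20%, -0.77 with the upper limits of the study as well, -0.82 without the 5% of barcodes with most UMIs and -0.76 after thinning to 20000 UMIs; leaving out 1 library it was -0.89 to -0.86. Without barcodes low in the anchor genes, an alternative added after the data were seen, it was -0.30 with 41 members and 16.5% of all genes lower, CDC25C was at 0.027 and the calls of 8 further members were lost. That choice of barcodes makes the change smaller by itself, as described above. For the other mitotic genes the median of -0.74 was -0.81 with DESeq2, -0.58 with scaling by total UMIs, -0.79 without the filter, -1.01 at the 20% limit and -0.65 after thinning, with 60 to 65 genes lower. A cut of 1.5 times the untreated median gave 1 member lower and 2 higher inside the profile (median 0.035), where 7.38% of all genes were lower and 8.41% higher, a median of -0.999 outside and a difference of 0.92. At the 20% limit 0 members were higher inside, where 4.3% of 12938 genes tested were higher and 2.19% lower. The median outside was then -1.23 and the difference 1.10. Scaling by total UMIs gave -0.72 outside. After thinning the median was 0.11 inside and -0.80 outside, and the difference was 0.83 with 30 members called. Of 15570 genes tested for the thinned difference 0.687% were called above 0 and 0.0514% below. The share with a mitotic profile, -2.65 percentage points, was -10.2 at a cut of 1.5 times, 0.196 at 3 times, which rests on 2 to 5 barcodes per library, and -0.239 with all 50 members as the score, and -3.64 to -1.67 when 1 library was left out. The cause of these shifts was not tested.

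With the replicate number as a replicate block, 50 members were lower in deep barcodes (median -0.85) and 50 outside the profile. Inside the profile 0 were lower and 1 higher, and 65 of the other mitotic genes were lower in deep barcodes. Over all genes tested the shares lower and higher were 27.6 and 30% in deep barcodes, 1.66 and 4.27% inside and 27.8 and 30% outside. Deviations of libraries with the same number did not go together (correlation -0.00064), so the numbers were not taken as pairs. With 2 libraries per condition no share of barcodes can reach an exact p under 0.333, and 31 to 183 barcodes per library limit the precision inside the profile.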
